A study of Mus musculus with 12 samples.

Results

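Luminal and basal epithelial cells were compared within mice carrying the Foxp1 conditional knockout, to describe which of the differences that separate the 2 mammary lineages were present in cells labelled as lacking Foxp1. The comparison holds 6 of the 12 libraries of the series, 3 biological replicates labelled Luminal Foxp1-knockout and 3 labelled Basal Foxp1-knockout, and every gene that passed a filter on low counts entered it. All mice were female, and their age is not in the labels. Knockout mice had the genotype MMTV-cre/Foxp1(fl/fl), in which the mouse mammary tumour virus promoter drives the Cre recombinase that deletes the floxed part of Foxp1, and control mice had the genotype Foxp1(fl/fl), floxed alleles with no Cre. The controls gave another 3 basal and 3 luminal libraries, so 4 groups of 3 entered the model, and the controls are used here as the reference for the same lineage contrast. How the cells were separated, and whether libraries of a group came from separate mice or pools, is not in the labels, so p-values measure the spread between these libraries.

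The mammary duct is a bilayer. The outer, basal layer is made mainly of myoepithelial cells, which lie on the basement membrane and contract under oxytocin to expel milk, and it also holds cells that can regenerate a gland after transplantation. The inner, luminal layer contains hormone-sensing cells, which carry the oestrogen and progesterone receptors, and luminal progenitors, which give rise to the alveolar cells that make milk. Foxp1 is a forkhead transcription factor that acts mainly as a repressor.

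Foxp1 itself (Entrez 108655, chr6:98925342-99522746 on GRCm38) was counted at 212, 193 and 284 CPM (counts scaled to library size) in the 3 basal knockout-labelled libraries and at 161, 149.8 and 155 CPM in the 3 luminal ones. The control values were 221, 213 and 159.7 CPM in basal and 82.3, 62.0 and 78.2 CPM in luminal cells. Basal values overlapped between the genotypes, and all 3 luminal knockout-labelled libraries stood above every luminal control. The count includes reads from outside the deleted part and so does not check the deletion, so each library is called by its label, knockout-labelled. Between the lineages the log2 fold of Foxp1, luminal against basal, was -0.56 (adjusted p = 0.0343, SE 0.19) in the knockout-labelled libraries, with groups that did not overlap, and this call was lost without basal replicates 1 or 3 or luminal replicates 1, 2 or 3 and with no filter on low counts (adjusted p up to 0.124).

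The 6 libraries held 10011880 to 15449513 counts, and luminal replicate 3 was the deepest. Transcripts of a salivary gland list made up 9.56%, 2.89% and 2.36% of the counts of luminal replicates 1, 2 and 3, and 0.0194%, 0.533% and 0.0752% of those of basal replicates 1, 2 and 3. Leaving these transcripts and the ribosomal RNA gene Rn45s out of the library sizes gave 6020 called genes in place of 6044. A list of 16 fibroblast genes summed to 4116, 5787 and 3527 CPM in the basal knockout-labelled libraries, against 483, 1180.3 and 1201 CPM in the luminal ones and 1338, 1192 and 1498 CPM in the basal controls. In bulk RNA of this kind, fewer cells of a type and less RNA per cell cannot be told apart.

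Of 14903 genes tested, 6044 differed between luminal and basal knockout-labelled cells, which is 40.6% of the genes tested (edgeR quasi-likelihood test, Benjamini-Hochberg adjusted p under 0.05). In luminal cells 2860 genes were higher, 19.2% of those tested, and 3184 were lower, 21.4%. At least a 2-fold difference was seen for 1903 of the higher and 2462 of the lower genes, and at least a 16-fold difference for 260 and 507. The values of the 2 groups did not overlap for 8177 genes, 54.9% of those tested, of which 5927 were also called. As 5927 of the 6044 called genes were separated, the separation of called genes given below adds little to their calls. It was also required of the genes named for the largest folds in each direction. The first principal component of the 12 libraries, which separated luminal from basal, held 63.5% of the variance. The median log2 fold over all tested genes was 0.03, the background against which the medians of gene lists below are given. The shares of 19.2% higher and 21.4% lower are likewise the background for the counts of each list in these libraries.

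Contractile genes were the basal group with the lowest luminal-to-basal folds. Of 23 genes of the myoepithelial contractile apparatus, 22 were lower in luminal cells and 0 were higher, with a median log2 fold of -5.76. Smooth muscle alpha-actin, Acta2, was at 3272, 3598 and 1702 CPM in the basal and 11.5, 17.3 and 12.6 CPM in the luminal libraries. Its log2 fold was -7.69 (adjusted p = 9.39e-06, SE 0.64), a 207-fold difference. The smooth muscle myosin heavy chain Myh11 was at 2112, 2418 and 1645 CPM in basal and 6.88, 9.93 and 7.74 CPM in luminal cells, a log2 fold of -7.97 (adjusted p = 5.61e-06, SE 0.61). Basal and luminal libraries were far apart for both genes, and basal replicate 3 was the lowest of the basal libraries. Mylk, the kinase that phosphorylates the myosin light chain, had a log2 fold of -7.67 (adjusted p = 5.60e-06, SE 0.59). Myl9, that light chain, had one of a log2 fold of -7.32 (adjusted p = 8.69e-06, SE 0.60), and the smooth muscle gamma-actin Actg2 one of -7.69 (adjusted p = 2.54e-05, SE 0.77). Only Srf, the transcription factor for which many of these genes are targets, was not called, with a log2 fold of -0.40 (adjusted p = 0.0835, SE 0.17), and it is named here after its value was seen. The summed level of the list was 14562, 17574 and 10256 CPM in basal and 1155, 1253 and 1649.8 CPM in luminal knockout-labelled libraries, against 18578, 20661 and 8259.7 CPM in basal and 1043, 1114 and 1497 CPM in luminal controls. In the controls, where 16.8% of the genes tested were lower and 16.3% higher in luminal cells, 21 members were lower, with a median of -5.36.

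The 250 bases before the start of Acta2 and of Myl9 are shown because the serum response factor pathway acts on smooth muscle genes through CArG elements near the start. The sequences are from RefSeq on GRCm38.p6, each 5′ to 3′ on the strand of its gene, Acta2 from chr19:34255374-34255623 on the minus strand and Myl9 from chr2:156775214-156775463 on the plus strand. Capitals mark matches to the CArG box or to a CArG-like form with 1 C or G in the A/T core, searched on both strands.
Acta2: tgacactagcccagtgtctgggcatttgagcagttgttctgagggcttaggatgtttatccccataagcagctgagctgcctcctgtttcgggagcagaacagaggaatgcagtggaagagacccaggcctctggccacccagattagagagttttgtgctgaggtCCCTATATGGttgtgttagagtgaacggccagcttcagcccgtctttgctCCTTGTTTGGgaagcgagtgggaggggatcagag
Myl9: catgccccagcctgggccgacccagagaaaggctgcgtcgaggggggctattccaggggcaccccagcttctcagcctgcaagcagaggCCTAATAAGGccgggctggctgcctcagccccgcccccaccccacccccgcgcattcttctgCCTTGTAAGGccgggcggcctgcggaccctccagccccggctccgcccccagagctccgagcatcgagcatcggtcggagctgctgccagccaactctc
The Acta2 window holds CArG-like matches 84 and 34 bases before the start, and the Myl9 window holds a CArG box 161 bases and a CArG-like match 99 bases before it. None of these matches overlaps another. Over windows of 300 bases, which run from 250 before to 50 after the start, 2 of 19 contractile genes found in the table held a CArG box. Of 32851 windows in all, 1.629% held one. A gene counted if any of its windows matched, while the share of all windows is per window. A CArG-like match was in 2 of the 19, against 8.499% of all windows. These 2 were Acta2 and Myl9, so the windows shown are not typical of the list. A match describes the letters in the window and is not evidence of a site in use.

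Keratins divided by layer. Of 9 basal and cornified keratin genes 4 were lower in luminal cells and 0 higher, with a median log2 fold of -3.35. Krt5, the basal type II keratin, was at 4648, 3259 and 2306 CPM in basal and 46.1, 229 and 141 CPM in luminal cells, and its partner Krt14 was at 8625, 4526 and 7901 CPM in basal and 208, 393 and 386 CPM in luminal cells. Their log2 folds were -4.61 (adjusted p = 0.00792, SE 1.15) and -4.41 (adjusted p = 6.94e-04, SE 0.73). Krt17 had a log2 fold of -4.24 (adjusted p = 2.74e-04, SE 0.61) and Krt15 one of -3.55 (adjusted p = 2.69e-04, SE 0.51). All 4 genes were counted in every luminal library, with Krt5 lowest in luminal replicate 1. Of 6 luminal keratins 4 were higher in luminal cells. Krt8 and Krt18, the pair that forms filaments in simple epithelium, had log2 folds of 3.09 (adjusted p = 3.80e-05, SE 0.33) and 3.65 (adjusted p = 1.22e-05, SE 0.33). For Krt8 the libraries gave 844, 497 and 662 CPM in basal and 4750.0, 5017 and 7339.8 CPM in luminal cells, with no overlap. Krt19 differed by a log2 fold of 4.13 (adjusted p = 9.51e-06, SE 0.35) and Krt7 by 4.66 (adjusted p = 0.00323, SE 0.99). Krt23 was the 1 member called lower in luminal cells, at a log2 fold of -0.92 (adjusted p = 0.0343, SE 0.31). That call was lost without basal replicates 2 or 3 or luminal replicates 2 or 3 (adjusted p up to 0.127). The remaining member, Krt20, had the lowest log2 fold of the list, -3.47, but was not called, and it is named here after its value was seen.

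**Figure D1:**
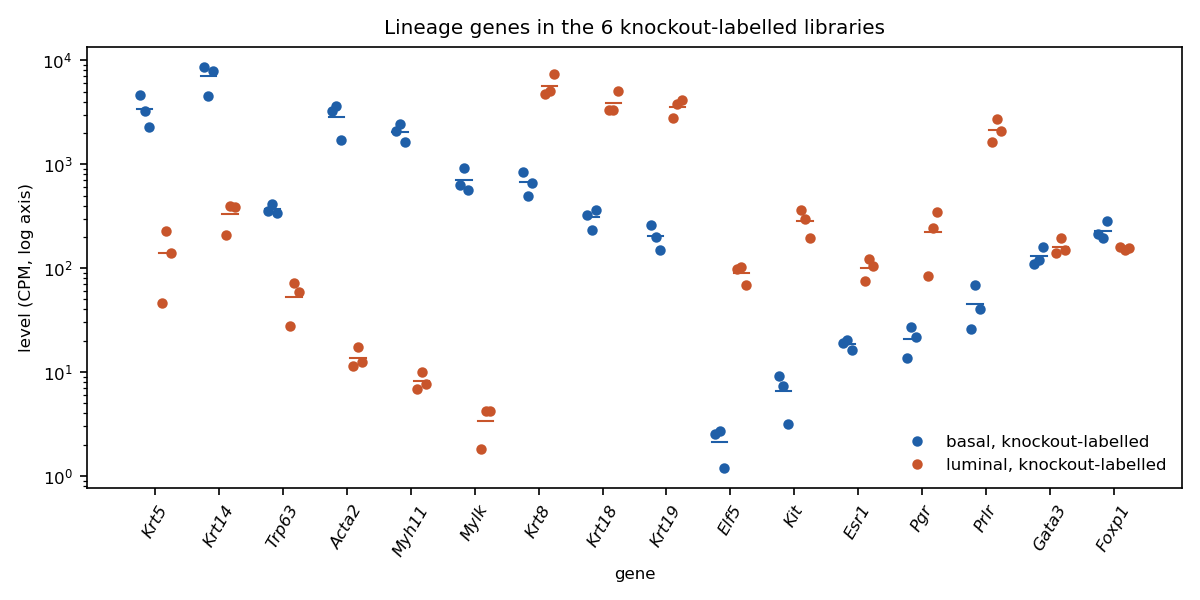
Level in CPM, on a log axis, of 16 genes in the 6 knockout-labelled libraries. Points are libraries and lines are means of 3. Acta2, Myh11 and Mylk are separated most, and Gata3 overlaps between the lineages at 109 to 159 CPM in basal and 139 to 195 CPM in luminal cells.

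Basal transcription factors were mostly lower in luminal cells and luminal ones were mixed. Of 24 factors of the basal list, 18 were lower in luminal cells and 0 higher, with a median of -2.12. Trp63, the p63 gene that specifies basal identity in stratified and glandular epithelium, was at 356, 410.2 and 339 CPM in basal and 27.5, 71.8 and 58.5 CPM in luminal cells, a log2 fold of -2.81 (adjusted p = 0.00233, SE 0.56). Snai2, a repressor of epithelial genes linked to the stem state, was at 89.9, 87.5 and 97.9 CPM in basal and 1.5, 4.03 and 8.88 CPM in luminal cells, a log2 fold of -4.23 (adjusted p = 8.49e-05, SE 0.51). Id4, an inhibitor of basic helix-loop-helix factors, was at a log2 fold of -4.92 (adjusted p = 1.19e-06, SE 0.28). The basal factors did not overlap between the lineages in any of these 3 genes. Twist2, a mesenchymal factor, had 56 counts over the basal and 1 over the luminal libraries, a ratio of 67.0 with an exact 95% counting interval of 11.5 to 2693. Its relative Twist1 had a log2 fold of -4.17 (adjusted p = 4.89e-04, SE 0.65) and Zeb2 one of -4.19 (adjusted p = 0.00104, SE 0.74). Twist1, Twist2 and Zeb2 are also transcribed in fibroblasts, whose markers moved the same way, and the part of these markers in the result was not tested.

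Of 35 luminal transcription factors 16 were higher in luminal cells and 3 lower, with a median of 0.70. Elf5, the driver of the alveolar lineage, was at 2.53, 2.69 and 1.19 CPM in basal and 98.8, 102 and 68.6 CPM in luminal cells, a log2 fold of 5.37 (adjusted p = 3.57e-05, SE 0.57). Pgr, the progesterone receptor, was at 13.7, 27.1 and 21.5 CPM in basal and 84.4, 242 and 345 CPM in luminal cells, a log2 fold of 3.43 (adjusted p = 0.00123, SE 0.62). Foxa1, the pioneer factor for the oestrogen receptor, was at a log2 fold of 2.60 (adjusted p = 4.57e-05, SE 0.28), and Spdef, an epithelial ETS factor, at 2.40 (adjusted p = 5.55e-04, SE 0.38). The lineages did not overlap in these 4 genes. Esr1, the oestrogen receptor, was at 19.0, 20.5 and 16.3 CPM in basal and 75.7, 123 and 104 CPM in luminal cells, a log2 fold of 2.44 (adjusted p = 0.0233, SE 0.75). This call was lost without basal replicates 1, 2 or 3 or luminal replicate 2 (adjusted p up to 0.0832). Gata3, which maintains luminal fate, was not called, with a log2 fold of 0.31 (adjusted p = 0.268, SE 0.21). Runx1, Cebpb and Id2 were lower in luminal cells, at a log2 fold of -1.96 (adjusted p = 9.23e-04, SE 0.34), -1.52 (adjusted p = 0.00188, SE 0.29) and -1.33 (adjusted p = 0.00126, SE 0.24).

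Luminal progenitor genes were called in both directions. Of 23 genes 10 were higher and 5 lower in luminal cells, with a median of 1.57, where 19.2% and 21.4% of all genes tested were higher and lower. Without luminal replicate 1 or without luminal replicate 2 the number lower was 3. The controls gave 18 higher and 1 lower with a median of 2.31. The fold differed between genotypes for 0 members, by a test of that difference at the same threshold. Kit, the stem cell factor receptor that marks these progenitors, was at 9.12, 7.35 and 3.15 CPM in basal and 360.4, 295 and 195 CPM in luminal cells, a log2 fold of 5.43 (adjusted p = 2.20e-05, SE 0.53). Aldh1a3, the retinaldehyde dehydrogenase enriched in them, was at a log2 fold of 5.17 (adjusted p = 3.63e-05, SE 0.55), the whey protein family member Wfdc18 at 5.90 (adjusted p = 4.14e-06, SE 0.42) and the chemokine Cxcl15 at 5.09 (adjusted p = 2.96e-04, SE 0.74). These 4 genes did not overlap between lineages. Of the genes that went the other way, Aldh1a1 was at a log2 fold of -3.88 (adjusted p = 2.51e-04, SE 0.55), and Itgb3, integrin beta 3, was at -1.79 (adjusted p = 0.0222, SE 0.55). The Itgb3 call was lost without basal replicate 1 or luminal replicates 1 or 2 (adjusted p up to 0.0803). Tspan8, a tetraspanin used to mark mammary cell subsets, was at 135, 170.2 and 166 CPM in basal and 59.6, 59.7 and 52.6 CPM in luminal cells, a log2 fold of -1.46 (adjusted p = 0.00678, SE 0.35). In the controls Tspan8 was at 27.3, 36.6 and 9.98 CPM in basal and 58.5, 52.2 and 39.7 CPM in luminal cells, a log2 fold of 1.03 (adjusted p = 0.0437, SE 0.35). Its fold was thus called in opposite directions in the 2 genotypes, while the test of the difference itself gave a log2 value of -2.48 (adjusted p = 0.0676, SE 0.50) and did not pass.

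Most hormone-sensing genes were higher in luminal cells. Of 26 genes 17 were higher and 2 lower in luminal cells, with a median of 2.52. Prlr, the prolactin receptor, was at 25.7, 69.5 and 40.5 CPM in basal and 1644, 2748 and 2067 CPM in luminal cells, a log2 fold of 5.57 (adjusted p = 9.51e-06, SE 0.47). Fxyd2, a regulator of the sodium pump, was at 8.21, 6.81 and 6.19 CPM in basal and 241, 299.6 and 429 CPM in luminal cells, a log2 fold of 5.51 (adjusted p = 8.49e-06, SE 0.45). The lowest luminal library exceeded the highest basal library for both, which was required of Prlr as a gene named for its large fold. Tph1, which makes serotonin, had a log2 fold of 4.97 (adjusted p = 1.30e-04, SE 0.64). Prom1, the CD133 surface protein, had one of a log2 fold of 4.77 (adjusted p = 3.06e-04, SE 0.69), and Gpx3, an extracellular glutathione peroxidase, one of 4.43 (adjusted p = 2.33e-04, SE 0.62). The prostaglandin synthase Ptgs1 was lower in luminal cells, at a log2 fold of -1.97 (adjusted p = 0.00955, SE 0.51). Tnfsf11, the RANK ligand through which progesterone acts on neighbouring cells, was near the limit of counting in both lineages, at 0.405, 0.627 and 0.326 CPM in basal and 1.10, 0.626 and 0.400 CPM in luminal cells, and overlapped between them.

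Of 18 tested milk genes of a list of 20, 12 were higher and 1 was lower in luminal cells, with a median of 2.54, which was the same with Csn1s2a set to its lower bound. The controls gave 16 higher and 0 lower with a median of 4.02, and 0 members passed the test of the difference between genotypes. The list summed to 1793, 1616 and 975 CPM in basal and 2144, 1608 and 1721 CPM in luminal cells, which overlapped. Btn1a1, the butyrophilin of the milk fat globule, was at 0.709, 0.537 and 0.652 CPM in basal and 135, 96.1 and 113 CPM in luminal cells, a log2 fold of 7.48 (adjusted p = 5.04e-06, SE 0.55). Wfdc3, a whey acidic protein relative, was at a log2 fold of 5.0 (adjusted p = 2.38e-05, SE 0.50) and the folate receptor Folr1 at 4.24 (adjusted p = 2.36e-06, SE 0.27). Csn3, the kappa-casein, which the naming rule did not pick, was at 70.0, 16.7 and 24.6 CPM in basal and 141, 146 and 458 CPM in luminal cells. Csn1s2a and Csn2 had few counts. Csn1s2a had 0 counts over the basal and 27 over the luminal libraries, which is at least 7.52-fold higher in luminal cells when 3 counts are set over the basal group. Csn2, the beta-casein, was counted 1 time in basal and 9 times in luminal cells, and the ratio was 7.52 with an exact 95% counting interval of 1.04 to 330. It was not called (adjusted p = 0.122), but was called without luminal replicate 2 (adjusted p = 0.0393). In luminal controls Csn2 was at 13.2, 15.6 and 6.64 CPM, and in luminal knockout-labelled cells at 0.598, 0 and 0.200 CPM. The member that went against the rest was Glycam1, a secreted mucin, at 240.4, 198 and 0.217 CPM in basal and 2.69, 1.88 and 0.133 CPM in luminal cells. The groups overlapped, with basal replicate 3 near 0, and the call of a log2 fold of -6.60 (adjusted p = 0.0107, SE 1.74) was lost with limma-voom (adjusted p up to 0.288).

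Promoters of Csn1s1 and Csn2 are shown because STAT5, the factor that carries the prolactin signal, binds the motif TTCNNNGAA in casein promoters. Csn1s1, the alpha-S1-casein, was chosen after its values were seen. It was at 0, 0.269 and 0.217 CPM in basal and 0.598, 0.805 and 1.13 CPM in luminal knockout-labelled cells, a log2 fold of 2.31 (adjusted p = 0.0109, SE 0.61). The sequences are the 250 bases before the RefSeq start on GRCm38.p6, Csn1s1 from chr5:87665958-87666207 on the plus strand and Csn2 from chr5:87699426-87699675 on the minus strand, 5′ to 3′ with the motif in capitals.
Csn1s1: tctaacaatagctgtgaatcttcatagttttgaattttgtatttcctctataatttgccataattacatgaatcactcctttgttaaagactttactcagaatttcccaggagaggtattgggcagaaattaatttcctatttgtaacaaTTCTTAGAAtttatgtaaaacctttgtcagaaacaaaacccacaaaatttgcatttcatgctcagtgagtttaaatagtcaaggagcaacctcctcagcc
Csn2: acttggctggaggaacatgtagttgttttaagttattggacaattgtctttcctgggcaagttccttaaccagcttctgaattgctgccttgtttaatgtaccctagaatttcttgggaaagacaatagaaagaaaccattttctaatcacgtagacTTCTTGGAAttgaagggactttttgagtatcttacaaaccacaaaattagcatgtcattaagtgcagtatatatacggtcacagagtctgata
The match lies 100 bases before the start in Csn1s1 and 93 bases before it in Csn2. TTCNNNGAA was found for 4 of 14 milk genes and 2 of 19 contractile genes with windows in the table, searched on both strands. It was in 8.298% of all 32851 windows of 300 bases. The list counts are again of genes with any matching window, and the share of all windows is per window.

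Genes used as markers of mammary stem cells were mostly lower in luminal cells. Of 17 tested genes of a list of 18, 13 were lower and 2 higher, with a median of -2.13. Dll1, a Notch ligand of basal cells, was at 641, 504 and 773 CPM in basal and 7.48, 6.98 and 10.2 CPM in luminal cells, a log2 fold of -6.27 (adjusted p = 1.19e-06, SE 0.36). Lgr5, the R-spondin receptor, was at 103, 116 and 169 CPM in basal and 1.30, 3.40 and 3.87 CPM in luminal cells, a log2 fold of -5.47 (adjusted p = 1.53e-05, SE 0.51). Bcl11b, a zinc finger factor, differed by a log2 fold of -4.13 (adjusted p = 2.18e-04, SE 0.57) and Procr, the protein C receptor, by -3.95 (adjusted p = 0.0112, SE 1.05). The lowest basal value was above the highest luminal value for each of these 4. Prom1, given with the hormone-sensing genes, and Bmi1, a Polycomb protein, were higher in luminal cells. Bmi1 had a log2 fold of 0.58 (adjusted p = 0.0191, SE 0.17), and this call was lost without basal replicate 3 or luminal replicates 1 or 3 (adjusted p up to 0.0705).

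**Figure D2:**
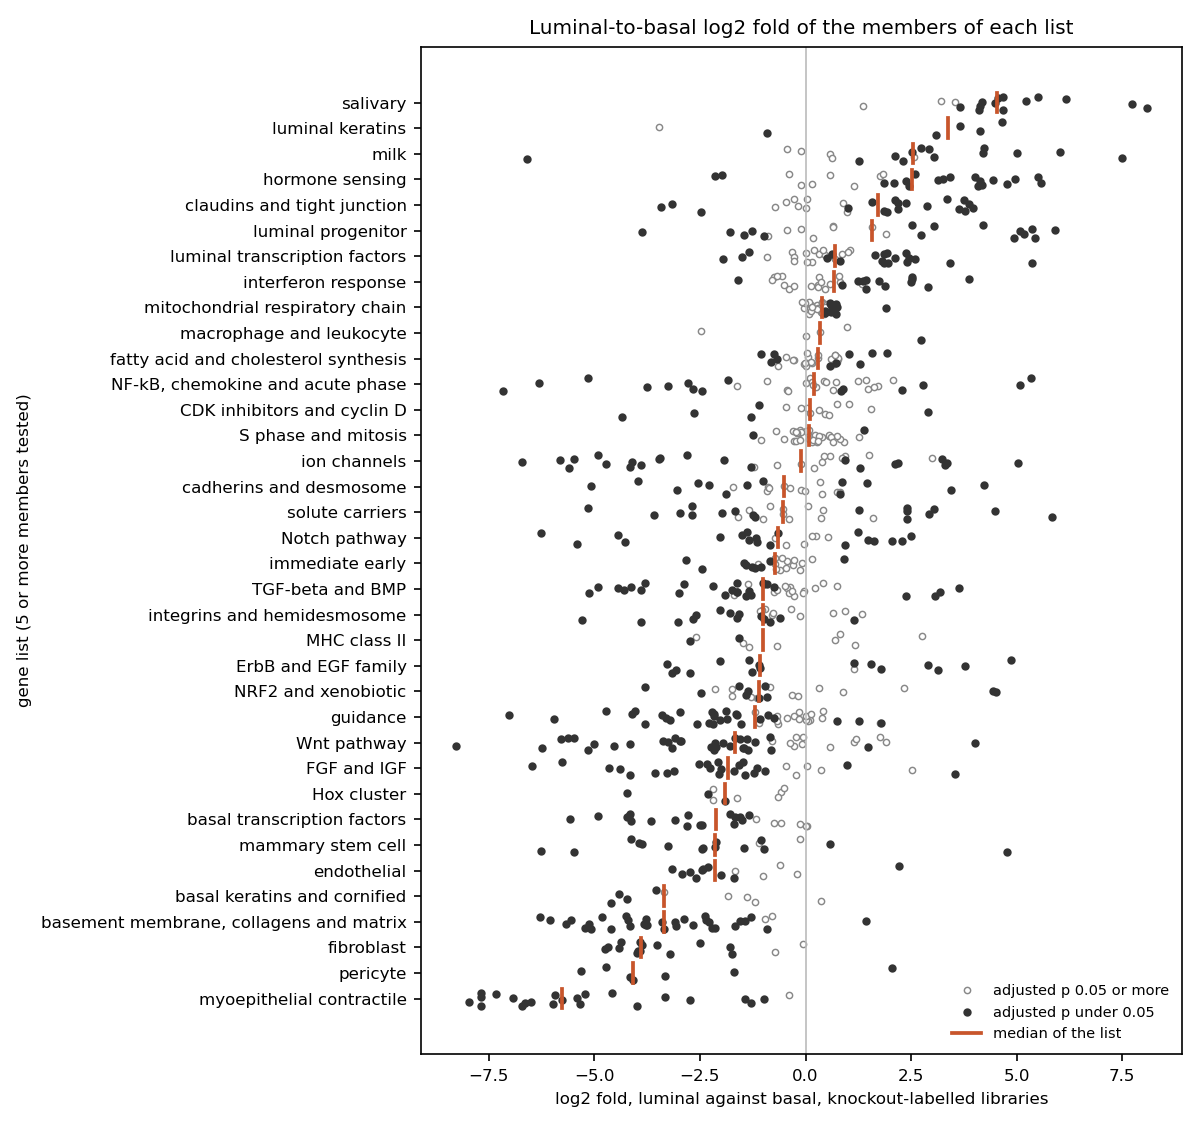
Log2 fold, luminal against basal, of every tested member of each gene list with 5 or more members tested. Filled points have an adjusted p under 0.05, open points do not, and the bar is the median of the list. Contractile genes have the lowest median, -5.76, and salivary genes the highest, 4.52.

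Extracellular matrix genes were lower in luminal cells nearly throughout. Of 35 genes 32 were lower and 1 higher, with a median of -3.36. Sparc, which binds collagen, was at 631, 1016 and 858 CPM in basal and 3.39, 18.5 and 9.81 CPM in luminal cells, a log2 fold of -6.30 (adjusted p = 5.52e-05, SE 0.71). Col4a2, a collagen IV chain of the basement membrane, was at 660.4, 967 and 725 CPM in basal and 11.1, 23.6 and 15.4 CPM in luminal cells, a log2 fold of -5.55 (adjusted p = 1.22e-05, SE 0.50). Vcan, the proteoglycan versican, was at a log2 fold of -6.05 (adjusted p = 9.51e-06, SE 0.51), the microfibril gene Fbn1 at -5.67 (adjusted p = 3.32e-04, SE 0.83) and the basement membrane collagen Col18a1 at -5.23 (adjusted p = 9.51e-06, SE 0.44). The separation was complete in each of these 5 genes. Lama5, the laminin alpha 5 chain, was at 685, 647 and 715 CPM in basal and 1457, 1785 and 2282 CPM in luminal cells, a log2 fold of 1.43 (adjusted p = 0.00996, SE 0.37), and was the 1 member that was higher in luminal cells. Among the genes with the largest folds outside the list, Col6a4, a collagen VI chain, was at a log2 fold of -7.66 (adjusted p = 1.55e-06, SE 0.46), Hmcn1, the matrix protein hemicentin, at -7.65 (adjusted p = 1.19e-06, SE 0.44), and Fmod, fibromodulin, at -7.45 (adjusted p = 1.67e-05, SE 0.70).

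Most fibroblast, pericyte and endothelial markers were lower in luminal than in basal knockout-labelled cells. Of 16 fibroblast genes 14 were lower in luminal knockout-labelled cells and 0 higher, with a median of -3.90, against 2 lower and 1 higher in the controls with a median of -0.94. By the test of the difference between genotypes, 0 members passed. Lum, lumican, was at 80.3, 92.4 and 59.6 CPM in basal and 0.299, 7.96 and 2.54 CPM in luminal cells, where the basal controls had 7.36, 8.04 and 14.9 CPM. Pi16 was at 41.6, 103 and 73.5 CPM in basal knockout-labelled and 2.59, 6.97 and 12.1 CPM in basal control libraries. Each basal knockout-labelled library exceeded each basal control for both genes. Col5a1, another list member, was at 73.6, 131 and 93.1 CPM in basal knockout-labelled and 129, 122 and 97.3 CPM in basal control libraries, which overlapped. Dpt, dermatopontin, had a luminal-to-basal log2 fold of -3.98 (adjusted p = 0.00555, SE 0.93), and Clec3b one of -4.38 (adjusted p = 0.00125, SE 0.79). The matrix list shares 0 genes with the fibroblast, pericyte and endothelial lists by how the lists were drawn up. In the controls 26 matrix genes were lower and 1 higher in luminal cells, with a median of -2.78. The part of fibroblasts, pericytes and endothelial cells in the matrix result was not tested in either genotype.

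Of 7 tested pericyte genes 6 were lower in luminal cells, among them Pdgfrb at a log2 fold of -5.32 (adjusted p = 7.43e-05, SE 0.63), Cspg4 at -4.71 (adjusted p = 7.25e-05, SE 0.55), Rgs5 at -4.09 (adjusted p = 0.00117, SE 0.73), Kcnj8 at -4.15 (adjusted p = 0.00200, SE 0.81) and Des at -3.34 (adjusted p = 0.00147, SE 0.62). The exception was Notch3, which is also a receptor of the Notch pathway and which supplied most of the luminal sum. The pericyte list summed to 129, 238 and 75.9 CPM in basal and 239, 295 and 173 CPM in luminal cells. In the controls 4 pericyte genes were lower and 1 higher. Of 14 endothelial genes 9 were lower and 1 higher in luminal cells, and the sum was 164, 190.2 and 177 CPM in basal and 113, 176 and 126 CPM in luminal cells. The controls gave 0 endothelial genes lower and 1 higher, with a median of -0.55 against -2.15. The median log2 fold of knockout-labelled against control was 0.12 in basal and -1.20 in luminal cells for endothelial genes. For fibroblast genes it was 2.50 in basal and -0.39 in luminal cells. For both lists 0 members passed the test of the difference between genotypes. The angiopoietin receptor Tek was at a log2 fold of -2.44 (adjusted p = 0.00326, SE 0.52), the VEGF receptor Kdr at -2.92 (adjusted p = 0.00549, SE 0.68) and Sox18 at -2.59 (adjusted p = 0.00780, SE 0.65). Sox17 and Cldn5 were called at a log2 fold of -2.73 and -3.16, calls lost without basal replicates 2 or 3 or luminal replicates 1, 2 or 3 (adjusted p up to 0.0773) for Sox17 and without basal replicate 3 or luminal replicates 1, 2 or 3 (adjusted p up to 0.0816) for Cldn5. Vwf, von Willebrand factor, was higher in luminal cells at a log2 fold of 2.20 (adjusted p = 1.03e-04, SE 0.27). No defining fibroblast, pericyte or endothelial marker was at 0 in any of the 12 libraries.

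**Figure D3:**
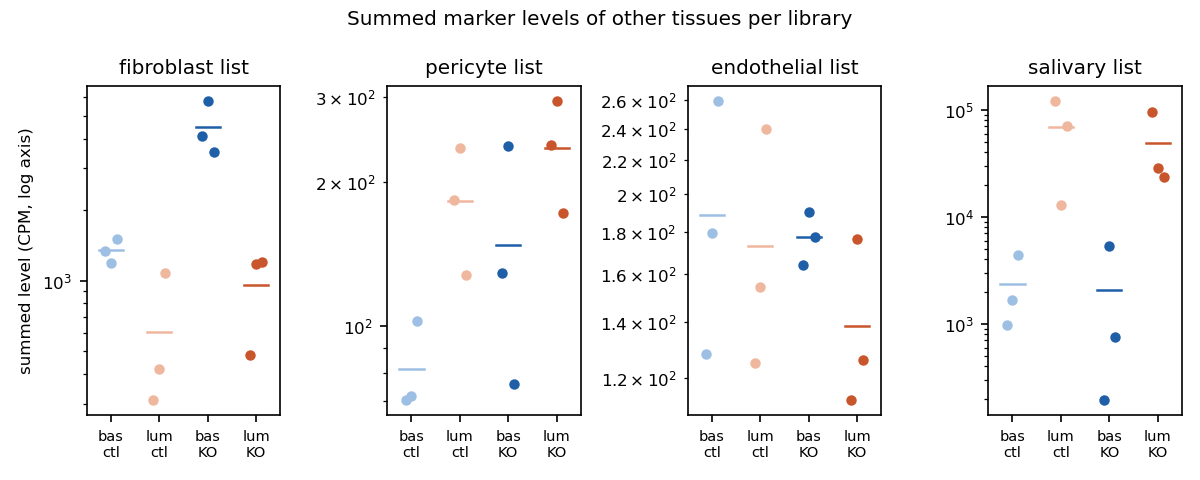
Summed level in CPM, on a log axis, of the fibroblast, pericyte, endothelial and salivary lists in each of the 12 libraries, with bas for basal, lum for luminal, ctl for control and KO for knockout-labelled. Points are libraries and lines are means of 3. The fibroblast sum is highest in the basal knockout-labelled libraries and the salivary sum is high in luminal libraries of both genotypes.

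Most leukocyte, adipocyte and red cell genes were too low to be tested. Of 15 macrophage and leukocyte genes 5 passed the filter, and Ptprc, Adgre1 and Tyrobp did not. The list summed to 20.2, 23.1 and 21.7 CPM in basal and 31.7, 24.6 and 34.7 CPM in luminal cells. Csf1r, the receptor for macrophage colony-stimulating factor, was at 0.709, 0.985 and 2.17 CPM in basal and 6.58, 5.37 and 13.8 CPM in luminal cells, a log2 fold of 2.74 (adjusted p = 0.0113, SE 0.73) that was lost without basal replicate 1 (adjusted p up to 0.0509). Under the replicate block 1 leukocyte gene was lower in luminal cells. Of 12 T and B cell genes 3 were tested. Igkc, an immunoglobulin light chain, had 24 counts in basal and 2 in luminal cells, a ratio of 14.4 with an exact 95% counting interval of 3.56 to 125, and its call was lost without basal replicate 1 or luminal replicate 3 (adjusted p up to 0.0689). Of 8 adipocyte genes 3 were tested, and the list summed to 66.8, 124 and 97.0 CPM in basal and 53.9, 43.6 and 60.6 CPM in luminal cells. Fabp4, a fatty acid carrier, was at a log2 fold of -2.84 (adjusted p = 0.0122, SE 0.77), lost without luminal replicate 2 (adjusted p up to 0.0506), and without basal replicate 3 an adipocyte gene was higher in luminal cells. Of 7 red cell genes Alas2 alone was tested and it was not called, at a log2 fold of 0.94 (adjusted p = 0.138, SE 0.48).

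Integrins were lower in luminal cells where they differed. Of 24 integrin and hemidesmosome genes 13 were lower and 1 higher, with a median of -1.01. Itga9 was at 103, 91.2 and 76.0 CPM in basal and 1.89, 1.61 and 3.27 CPM in luminal cells, a log2 fold of -5.29 (adjusted p = 5.37e-06, SE 0.40). Itga1, a collagen receptor, was at a log2 fold of -3.90 (adjusted p = 4.48e-05, SE 0.42), Itga8 at -2.59 (adjusted p = 1.32e-04, SE 0.33) and Itgb7 at -2.67 (adjusted p = 3.40e-04, SE 0.39). These 4 subunits did not overlap between lineages. Itgb2, the leukocyte integrin chain, was at a log2 fold of -3.01 (adjusted p = 0.0136, SE 0.83), a call lost without basal replicate 3 (adjusted p up to 0.0566). Plec, the cytolinker plectin, was higher in luminal cells at a log2 fold of 1.15 (adjusted p = 0.0493, SE 0.43), a call lost without basal replicates 1, 2 or 3 or luminal replicates 1 or 3, with limma-voom, with RLE factors and with luminal replicate 3 thinned (adjusted p up to 0.159). Under the replicate block 4 members were higher in luminal cells in place of 1.

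Of 26 tested tight junction genes of a list of 29, 15 were higher and 3 lower in luminal cells, with a median of 1.71. Cldn3, a barrier claudin, was at 24.8, 14.6 and 15.1 CPM in basal and 237, 311 and 301 CPM in luminal cells, a log2 fold of 3.96 (adjusted p = 4.78e-06, SE 0.29). Cldn7 was at 35.8, 8.96 and 16.1 CPM in basal and 255, 229.9 and 338 CPM in luminal cells, a log2 fold of 3.76 (adjusted p = 7.26e-04, SE 0.63). The scaffold Tjp3 differed by a log2 fold of 3.86 (adjusted p = 2.22e-04, SE 0.53), cingulin, Cgn, by 3.78 (adjusted p = 7.88e-04, SE 0.64) and Cldn6 by 3.63 (adjusted p = 1.93e-04, SE 0.49). All 5 genes were separated between the lineages. The junctional adhesion molecules Jam2 and Jam3 and the endothelial claudin Cldn5 were lower in luminal cells, Jam2 at a log2 fold of -3.43 (adjusted p = 3.30e-05, SE 0.36) and Jam3 at -2.48 (adjusted p = 5.08e-04, SE 0.39).

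Cadherins and desmosome genes were called in both directions. Of 25 tested genes of a list of 26, 8 were lower and 5 higher in luminal cells, with a median of -0.52, and under the replicate block 13 were lower. Over all genes tested 21.4% were lower and 19.2% higher. Cdh3, P-cadherin of the basal layer, was at 327, 342 and 391 CPM in basal and 21.8, 35.8 and 71.0 CPM in luminal cells, a log2 fold of -3.04 (adjusted p = 2.47e-04, SE 0.43). Cdh13 was at a log2 fold of -5.08 (adjusted p = 2.88e-04, SE 0.73) and Cdh11 at -3.98 (adjusted p = 1.12e-04, SE 0.50). On the luminal side Pkp2, a desmosomal plakophilin, was at 4.96, 3.76 and 4.67 CPM in basal and 85.7, 63.8 and 100.5 CPM in luminal cells, a log2 fold of 4.22 (adjusted p = 2.86e-06, SE 0.29). The nectin Nectin4 was at a log2 fold of 3.46 (adjusted p = 6.17e-04, SE 0.56) and the luminal surface marker Cd24a at 1.45 (adjusted p = 0.00781, SE 0.36).

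Wnt pathway genes lay mainly on the basal side. Of 43 tested genes of a list of 51, 30 were lower and 2 higher in luminal cells, with a median of -1.68, and under the replicate block 4 were higher. Wif1, a secreted Wnt inhibitor, had the lowest fold of all named genes, at 235, 370.4 and 482 CPM in basal and 0.499, 1.79 and 1.13 CPM in luminal cells, a log2 fold of -8.28 (adjusted p = 6.15e-06, SE 0.65). Among ligands, Wnt10a was at 119.6, 53.0 and 67.4 CPM in basal and 1.2, 2.33 and 0.868 CPM in luminal cells, a log2 fold of -5.78 (adjusted p = 1.32e-05, SE 0.52), and Wnt6 was at -5.61 (adjusted p = 1.95e-04, SE 0.76). Nkd1, an intracellular inhibitor that Wnt signalling induces, was at a log2 fold of -6.25 (adjusted p = 8.32e-05, SE 0.75). The ligands on the luminal side were Wnt7b, at 8.61, 8.42 and 17.1 CPM in basal and 129.8, 113 and 302 CPM in luminal cells with a log2 fold of 4.0 (adjusted p = 0.00586, SE 0.94), and Wnt5b at 1.47 (adjusted p = 0.00208, SE 0.29). In the controls 26 members were lower and 2 higher, with a median of -1.29.

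Of 25 tested Notch pathway genes of a list of 29, 12 were lower and 7 higher in luminal cells, with a median of -0.65. The ligands Dll1, given above, and Jag2, at 213, 332 and 175 CPM in basal and 7.18, 17.6 and 12.5 CPM in luminal cells with a log2 fold of -4.27 (adjusted p = 2.63e-05, SE 0.43), were lower in luminal cells. So were the atypical ligands Dlk2, at a log2 fold of -4.45 (adjusted p = 1.24e-05, SE 0.40), and Dlk1, with 117 counts in basal and 3 in luminal cells, a ratio of 46.7 with an exact 95% counting interval of 15.6 to 230. The receptor Notch3 lay on the luminal side, at 41.6, 89.6 and 27.6 CPM in basal and 229, 258 and 169.8 CPM in luminal cells, a log2 fold of 2.05 (adjusted p = 0.00710, SE 0.50). The Deltex regulators Dtx4 and Dtx1 were higher too, at a log2 fold of 2.29 (adjusted p = 7.61e-04, SE 0.38) and 2.50 (adjusted p = 6.99e-04, SE 0.41). These ligands were named for their large folds and Notch3 for going against the majority of the list. Other tested ligands and receptors of the list are not reported here, so no split of ligands and receptors can be read from these genes.

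Of 17 tested genes of the ErbB and EGF family 9 were lower and 7 higher in luminal cells, with a median of -1.08. Areg, the amphiregulin ligand that relays oestrogen signals, was at 69.4, 35.7 and 25.5 CPM in basal and 326, 451 and 364 CPM in luminal cells, a log2 fold of 3.13 (adjusted p = 0.00151, SE 0.58). The ligand Btc was at 3.77 (adjusted p = 2.75e-04, SE 0.54) and the receptor Erbb4, which drives alveolar differentiation, was at 0.405, 0 and 0.217 CPM in basal and 6.48, 5.91 and 6.14 CPM in luminal cells, a log2 fold of 4.86 (adjusted p = 7.33e-05, SE 0.57). The neuregulins Nrg2 and Nrg1, named for their large folds, were on the other side. Nrg2 was at -3.28 (adjusted p = 1.26e-04, SE 0.42) and Nrg1 at 42.7, 27.5 and 111 CPM in basal and 7.28, 4.65 and 8.34 CPM in luminal cells, a log2 fold of -3.15 (adjusted p = 0.00724, SE 0.77). Areg, Btc, Erbb4, Nrg2 and Nrg1 did not overlap between the lineages. Nrg4, another neuregulin tested, is not reported here, so no direction of the neuregulins as a group can be read.

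Of 28 FGF and IGF genes 21 were lower and 2 higher in luminal cells, with a median of -1.85. Igfbp3, which binds insulin-like growth factors, was at 1099, 583 and 1031 CPM in basal and 7.38, 12.5 and 10.3 CPM in luminal cells, a log2 fold of -6.49 (adjusted p = 1.00e-04, SE 0.80). The binding proteins Igfbp2 and Igfbp6 were at a log2 fold of -4.16 (adjusted p = 0.00316, SE 0.88) and -4.66 (adjusted p = 0.00132, SE 0.85), and the receptor Fgfr4 at -5.76 (adjusted p = 4.47e-05, SE 0.63). Fgf10, a ligand of the mammary stroma, was at 4.05, 17.9 and 1.63 CPM in basal and 0, 0.895 and 0.200 CPM in luminal cells, a log2 fold of -4.40 (adjusted p = 0.00651, SE 1.06), with basal replicate 2 highest. The fibroblast list was also higher in these basal libraries and its part in the Fgf10 and Igfbp6 values was not tested. On the luminal side were Fgf13, an intracellular FGF homologue, at a log2 fold of 3.53 (adjusted p = 5.18e-05, SE 0.39) and the mannose 6-phosphate receptor Igf2r at 0.99 (adjusted p = 0.00440, SE 0.22).

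Of 41 tested TGF-beta and BMP genes 22 were lower and 4 higher in luminal cells, with a median of -0.998. Tgfbr3, the co-receptor betaglycan, was at 477, 528 and 472 CPM in basal and 12.1, 19.5 and 10.8 CPM in luminal cells, a log2 fold of -5.12 (adjusted p = 1.13e-05, SE 0.45). Fst, the activin antagonist follistatin, was at a log2 fold of -4.45 (adjusted p = 9.59e-04, SE 0.77) and the ligand Gdf11 at -4.13 (adjusted p = 5.30e-05, SE 0.46). Inhbb, an activin subunit, was at 25.7, 35.3 and 45.0 CPM in basal and 212, 207 and 466 CPM in luminal cells, a log2 fold of 3.06 (adjusted p = 5.72e-05, SE 0.35). Ltbp1, which stores latent TGF-beta, and the ligand Bmp3 were also higher in luminal cells, at a log2 fold of 3.18 (adjusted p = 9.99e-04, SE 0.56) and 3.64 (adjusted p = 0.00112, SE 0.65). Fst and Gdf11 were named for their large folds, and Inhbb, Ltbp1 and Bmp3 for going against the majority of the list. Other activin subunits of the list are not reported here, so no split of activin and its antagonist can be read from these genes.

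Of 45 tested guidance genes, which steer axons and epithelial branching, 25 were lower and 3 higher in luminal cells, with a median of -1.2. Slit3, a ligand of Robo receptors, was at 241, 319 and 321 CPM in basal and 0.698, 3.58 and 2.40 CPM in luminal cells, a log2 fold of -7.02 (adjusted p = 1.84e-05, SE 0.67). The semaphorins Sema3d and Sema5a were at a log2 fold of -4.72 (adjusted p = 9.66e-04, SE 0.82) and -4.12 (adjusted p = 1.35e-05, SE 0.37), and the semaphorin receptor Plxna4 at -4.03 (adjusted p = 0.00153, SE 0.75). Unc5c, a netrin receptor, had 126 counts in basal and 2 in luminal cells, a ratio of 75.4 with an exact 95% counting interval of 20.4 to 629. Ntn1, the netrin ligand, was higher in luminal cells at a log2 fold of 1.26 (adjusted p = 0.00135, SE 0.23), as was the plexin Plxnb2 at 0.75 (adjusted p = 0.00744, SE 0.19). Sema4d was also called, at a log2 fold of 1.79 (adjusted p = 0.0364, SE 0.61), and that call was lost without basal replicates 1, 2 or 3 or luminal replicates 1, 2 or 3 and with no filter on low counts (adjusted p up to 0.107). Ephb1, an ephrin receptor outside the list, was at a log2 fold of -7.49 (adjusted p = 1.04e-05, SE 0.65).

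Most interferon-response genes that were called were higher in luminal cells. Of 30 genes 12 were higher and 1 lower, with a median of 0.68, and under the replicate block 4 were lower. Bst2, the tetherin that retains virions, was at 12.2, 14.7 and 12.3 CPM in basal and 60.1, 82.0 and 79.7 CPM in luminal cells, a log2 fold of 2.50 (adjusted p = 1.13e-05, SE 0.22). Usp18, a negative regulator of the response, was at 7.70, 6.36 and 7.39 CPM in basal and 35.5, 39.4 and 49.2 CPM in luminal cells, a log2 fold of 2.53 (adjusted p = 1.35e-04, SE 0.33), and the sensor Oas2 was at 2.90 (adjusted p = 0.00274, SE 0.60). These 3 genes did not overlap between lineages. Rsad2 and Oas3 were at a log2 fold of 2.51 (adjusted p = 0.0220, SE 0.77) and 3.86 (adjusted p = 0.0130, SE 1.06), and the calls were lost without basal replicates 1 or 2 or luminal replicate 3 (adjusted p up to 0.101) for Rsad2 and without basal replicate 1 (adjusted p up to 0.0548) for Oas3. Ifit2 was the 1 member lower in luminal cells, at a log2 fold of -1.61 (adjusted p = 0.0270, SE 0.52), a call lost without basal replicates 2 or 3 or luminal replicates 1, 2 or 3 (adjusted p up to 0.0894). Without basal replicate 2 there were 2 lower members. Of 10 tested class II antigen presentation genes 2 were lower, Cd74, the invariant chain, at a log2 fold of -2.74 (adjusted p = 0.00265, SE 0.56) and H2-Ab1 at -1.58 (adjusted p = 0.0213, SE 0.48). The H2-Ab1 call was lost without basal replicates 1 or 3 or luminal replicates 1 or 2 (adjusted p up to 0.0797), and under the replicate block 5 of these genes were lower.

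NF-kB, chemokine and acute phase genes were called in both directions, as genes at large were. Of 34 tested, 9 were lower and 6 higher in luminal cells, with a median of 0.21. Over all genes tested 21.4% were lower and 19.2% higher. The chemokine Cxcl14 was at 1861, 1798 and 2626 CPM in basal and 7.98, 17.5 and 17.9 CPM in luminal cells, a log2 fold of -7.17 (adjusted p = 1.13e-05, SE 0.63). Ccl2 and Ccl7, monocyte chemoattractants, were at a log2 fold of -5.16 (adjusted p = 4.11e-04, SE 0.79) and -6.30 (adjusted p = 5.53e-05, SE 0.71). Hp, the acute phase protein haptoglobin, was at 1.92, 3.85 and 3.04 CPM in basal and 99.8, 109 and 89.7 CPM in luminal cells, a log2 fold of 5.07 (adjusted p = 3.69e-06, SE 0.36), and Tnfaip2 was at 2.78 (adjusted p = 0.00544, SE 0.65). Il1rl1, the receptor for interleukin 33, was at 4.26, 13.5 and 29.7 CPM in basal and 122, 763 and 1040.0 CPM in luminal knockout-labelled cells, a log2 fold of 5.35 (adjusted p = 0.00123, SE 0.97). In the controls it was at 6.85, 2.05 and 4.25 CPM in basal and 2.43, 1.66 and 8.35 CPM in luminal cells, a log2 fold of -0.08 (adjusted p = 0.958, SE 0.91). The test of the difference between these folds gave a log2 value of 5.42 (adjusted p = 0.104, SE 1.28) and did not pass.

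Few proliferation genes were called. Of 34 S phase and mitosis genes 1 was higher and 1 lower in luminal cells, with a median of 0.08. Mcm6, part of the replicative helicase, was higher at a log2 fold of 1.39 (adjusted p = 0.0381, SE 0.48), a call lost without basal replicates 1 or 3 or luminal replicates 1 or 2 and with no filter on low counts (adjusted p up to 0.134). Pcna, the DNA polymerase clamp, was lower at a log2 fold of -1.26 (adjusted p = 0.00759, SE 0.31), and under the replicate block 2 genes were lower. Among 15 CDK inhibitors and D cyclins 4 were lower and 1 higher. The D cyclins went opposite ways, with Ccnd2 at 139.7, 179.8 and 134 CPM in basal and 2.99, 12.5 and 6.81 CPM in luminal cells, a log2 fold of -4.34 (adjusted p = 8.32e-05, SE 0.52), and Ccnd1 at 51.6, 46.4 and 30.6 CPM in basal and 344, 413 and 211 CPM in luminal cells, a log2 fold of 2.91 (adjusted p = 5.54e-04, SE 0.47). Both were separated between the lineages. The inhibitors Cdkn1c and Cdkn2d were at a log2 fold of -2.65 (adjusted p = 5.22e-05, SE 0.29) and -1.09 (adjusted p = 0.0112, SE 0.29). Cdkn1a, the p21 gene, was at a log2 fold of -1.28 (adjusted p = 0.0178, SE 0.37), a call lost without basal replicate 1 or luminal replicate 2 (adjusted p up to 0.0829). Under the replicate block 2 genes of this list were higher.

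Lipid synthesis genes did not share a direction. Of 32 genes 6 were higher and 4 lower in luminal cells, with a median of 0.30, and under the replicate block 11 were higher. Over all genes tested 19.2% were higher and 21.4% lower. Scd1, which desaturates fatty acids, was at 177, 202 and 90.3 CPM in basal and 524, 366 and 501 CPM in luminal cells, a log2 fold of 1.57 (adjusted p = 0.00570, SE 0.37). Dgat2 and Gpam, which build triglycerides, were at a log2 fold of 1.30 (adjusted p = 0.00414, SE 0.29) and 1.03 (adjusted p = 0.00348, SE 0.22). Elovl5, a fatty acid elongase, was lower at a log2 fold of -1.05 (adjusted p = 5.00e-04, SE 0.16). Fasn, fatty acid synthase, was lower at a log2 fold of -0.83 (adjusted p = 0.0177, SE 0.24), lost without basal replicate 3 or luminal replicates 2 or 3 (adjusted p up to 0.0672), and the sterol demethylase Cyp51 was lower at -0.74 (adjusted p = 0.0327, SE 0.25), lost without basal replicates 1 or 3 or luminal replicates 1, 2 or 3 and with library size alone (adjusted p up to 0.115). The number lower was 2 without basal replicate 1 or luminal replicate 1, and 1 without basal replicate 3, luminal replicate 2 or luminal replicate 3.

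Transporters and channels were called in both directions. Of 28 solute carriers 8 were higher and 9 lower in luminal cells, and under the replicate block 14 were lower. Over all genes tested 19.2% were higher and 21.4% lower. Slc12a2, the sodium, potassium and chloride cotransporter of secretory epithelium, was at 439, 389 and 535 CPM in basal and 2814, 4618 and 3844 CPM in luminal cells, a log2 fold of 3.05 (adjusted p = 1.50e-04, SE 0.40). Slc28a3, a nucleoside transporter, was at a log2 fold of 5.84 (adjusted p = 0.00357, SE 1.26) and the amino acid transporter Slc38a1 at 4.48 (adjusted p = 4.12e-05, SE 0.48). Slc2a4, the insulin-regulated glucose transporter, and Slc38a4 were on the basal side, at a log2 fold of -3.60 (adjusted p = 3.36e-04, SE 0.53) and -5.15 (adjusted p = 6.53e-04, SE 0.84). Of 33 tested ion channel genes 14 were lower and 8 higher, and the number higher was 5 without luminal replicate 3. Cacna1c, the L-type calcium channel of smooth muscle, was at 58.3, 56.3 and 56.7 CPM in basal and 1.99, 0.805 and 1.07 CPM in luminal cells, a log2 fold of -5.48 (adjusted p = 2.96e-06, SE 0.38). The potassium channel genes Kcnq5 and Kcne4 were at a log2 fold of -5.81 (adjusted p = 7.71e-06, SE 0.47) and -5.61 (adjusted p = 0.00201, SE 1.10), and Kcnmb1, a subunit of the calcium-activated potassium channel of smooth muscle, had 305 counts in basal and 3 in luminal cells, a ratio of 122 with an exact 95% counting interval of 41.2 to 593. On the luminal side the mechanosensitive channel Piezo2 was at 19.8, 24.8 and 21.3 CPM in basal and 161, 254 and 254 CPM in luminal cells, a log2 fold of 3.34 (adjusted p = 1.49e-05, SE 0.31). The cation channel Trpc6 and the potassium channel Kcnn4 were higher too, at a log2 fold of 5.03 (adjusted p = 2.66e-04, SE 0.71) and 3.31 (adjusted p = 0.0113, SE 0.88).

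Of 21 tested NRF2 and xenobiotic genes 8 were lower and 2 higher in luminal cells, with a median of -1.10. Gstm1, a glutathione transferase, was at 126, 81.6 and 79.7 CPM in basal and 21.7, 17.0 and 13.1 CPM in luminal cells, a log2 fold of -2.47 (adjusted p = 2.63e-05, SE 0.25), and the cytochrome Cyp1b1 was at -3.81 (adjusted p = 0.00136, SE 0.70). Gpx2 was at a log2 fold of -1.58 (adjusted p = 0.0255, SE 0.50), lost without basal replicate 1 or luminal replicates 1, 2 or 3 (adjusted p up to 0.172). Cyp24a1, which inactivates vitamin D, was higher in luminal cells at a log2 fold of 4.51 (adjusted p = 0.00386, SE 0.99). Of 9 tested Hox genes of 27, 3 were lower and 0 higher. Hoxb9 had 37 counts in basal and 2 in luminal cells, a ratio of 22.1 with an exact 95% counting interval of 5.71 to 190. Hoxd8 was at a log2 fold of -2.31 (adjusted p = 0.0174, SE 0.67) and Hoxa10 at -1.90 (adjusted p = 0.0482, SE 0.70), calls lost without basal replicates 1 or 2 or luminal replicates 1 or 3 (adjusted p up to 0.0691) for Hoxd8 and without basal replicates 1 or 2 or luminal replicates 1 or 3, with DESeq2, with library size alone, with no filter on low counts and with only the 6 libraries in the fit (adjusted p up to 0.183) for Hoxa10. The number of Hox genes lower was 1 without basal replicate 1 or 2, 8 without basal replicate 3 or luminal replicate 2, and 6 under the replicate block. Foxp2, a relative of Foxp1, was at a log2 fold of -1.83 (adjusted p = 0.0461, SE 0.67), a call lost without basal replicates 1, 2 or 3 or luminal replicates 1, 2 or 3, with library size alone, with no filter on low counts and with luminal replicate 3 thinned (adjusted p up to 0.165).

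Immediate early genes, which respond fast to stimulation, were mostly lower in luminal cells where they differed. Of 22 genes 8 were lower and 1 higher, with a median of -0.71, against 2 lower and 2 higher in the controls. By the test of the difference between genotypes, 0 members passed. Egr3 was at 261, 194 and 283 CPM in basal and 41.7, 42.4 and 19.6 CPM in luminal cells, a log2 fold of -2.83 (adjusted p = 0.00290, SE 0.59). Egr2 was at a log2 fold of -2.45 (adjusted p = 0.00524, SE 0.57), Myc at -1.40 (adjusted p = 0.00110, SE 0.25) and the phosphatase Dusp1 at -1.26 (adjusted p = 0.00413, SE 0.28). Each basal library stood above each luminal library for these 4. Nr4a2 was at a log2 fold of -1.45 (adjusted p = 0.0146, SE 0.41), lost without luminal replicates 2 or 3 (adjusted p up to 0.0616). Klf6 was higher in luminal cells at a log2 fold of 0.91 (adjusted p = 0.0102, SE 0.24). The number lower was 5 without basal replicate 1 or luminal replicate 3, 4 without luminal replicate 2, and 14 under the replicate block. Of 30 tested respiratory chain genes 11 were higher and 0 lower in luminal cells, with a median of 0.39. Ppargc1a, the coactivator of mitochondrial biogenesis on this list, was at a log2 fold of 1.90 (adjusted p = 0.00548, SE 0.44). The cytochrome oxidase subunits Cox5a and Cox6b1 were at a log2 fold of 0.72 (adjusted p = 0.00863, SE 0.18) and 0.73 (adjusted p = 0.00990, SE 0.19). Ndufb3 and Cox7c were at a log2 fold of 0.74 (adjusted p = 0.0314, SE 0.24) and 0.66 (adjusted p = 0.0409, SE 0.23), calls lost without basal replicates 1 or 3 or luminal replicates 1 or 2 and with only the 6 libraries in the fit (adjusted p up to 0.0958) for Ndufb3 and without basal replicates 1, 2 or 3 or luminal replicates 1, 2 or 3, with no filter on low counts and with only the 6 libraries in the fit (adjusted p up to 0.112) for Cox7c. The number higher was 6 without basal replicate 1 or luminal replicate 3, 3 without basal replicate 3, luminal replicate 1 or luminal replicate 2, and 17 under the replicate block.

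The largest folds on the luminal side were led by salivary transcripts. Of 16 tested salivary genes of a list of 19, 13 were higher in luminal cells and 0 lower, with a median of 4.52, and in the controls 12 were higher with a median of 4.33. Dcpp1, a demilune cell protein of the salivary gland, was at 12.1, 9.76 and 9.89 CPM in basal and 5989.8, 1161 and 1521 CPM in luminal cells, a log2 fold of 8.09 (adjusted p = 4.40e-04, SE 1.25). Dcpp3 was at a log2 fold of 7.74 (adjusted p = 7.34e-04, SE 1.29) and Dcpp2 at 6.17 (adjusted p = 0.00557, SE 1.44), the latter lost with limma-voom (adjusted p up to 0.0752). Dcpp1 to Dcpp3 are similar copies, so reads may have been split among them and their values are uncertain. Aqp5, the water channel of secretory glands, was at 2.13, 9.58 and 5.54 CPM in basal and 154, 332 and 302 CPM in luminal cells, a log2 fold of 5.50 (adjusted p = 1.22e-05, SE 0.49). Scgb2b27, a secretoglobin with close copies, was at a log2 fold of 5.21 (adjusted p = 0.00251, SE 1.06). The list summed to 194, 5333 and 752 CPM in basal and 95574, 28917 and 23602 CPM in luminal cells, with luminal replicate 1 highest, and the part of another gland's RNA in these values was not tested.

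Beyond these, Dmbt1, a secreted scavenger receptor of mucosa, was at 33.2, 12.5 and 38.6 CPM in basal and 576, 1654 and 3617 CPM in luminal cells, a log2 fold of 6.12 (adjusted p = 3.70e-04, SE 0.92). Clic6, an intracellular chloride channel protein, was at a log2 fold of 5.80 (adjusted p = 1.07e-05, SE 0.50), the mucin Muc20 at 5.83 (adjusted p = 1.04e-05, SE 0.50), the organic anion transporter Slco1a5 at 6.16 (adjusted p = 1.74e-04, SE 0.82) and the neurexin Nrxn3 at 6.0 (adjusted p = 0.00251, SE 1.22). On the basal side the kainate receptor subunit Grik3 was at 142, 214 and 256 CPM in basal and 0.299, 1.34 and 0.801 CPM in luminal cells, a log2 fold of -7.93 (adjusted p = 2.36e-06, SE 0.51). Mrvi1, which regulates calcium release in smooth muscle, was at a log2 fold of -7.73 (adjusted p = 5.83e-05, SE 0.88) and Tmem88b at -7.40 (adjusted p = 1.79e-05, SE 0.71).

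The same contrast in the control libraries, which share no library with the knockout-labelled ones, called 4942 genes, 33.2% of those tested, of which 2435 were higher (16.3%) and 2507 lower (16.8%) in luminal cells. In both genotypes 3851 genes were called in the same direction, 1808 higher and 2043 lower in luminal cells. These were 77.9% of the control calls and 63.7% of the knockout calls. Of all control calls 4779, or 96.7%, had the same sign in the knockout-labelled libraries, and within pairs of the same replicate number the share was 96.3%, 95.5% and 95.7%. There were 1060 control calls not called in the knockout-labelled libraries, of which 928 had the same sign, and 2162 knockout calls not called in the controls, of which 1952 had the same sign. Across genes, which are not independent replicates and which share the fit, the folds of the genotypes correlated with a Pearson r of 0.843 and a Spearman rho of 0.817, and the slope of the knockout on the control fold was 0.888. The median absolute log2 fold was 0.64 in the knockout-labelled and 0.56 in the control libraries.

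**Figure D4:**
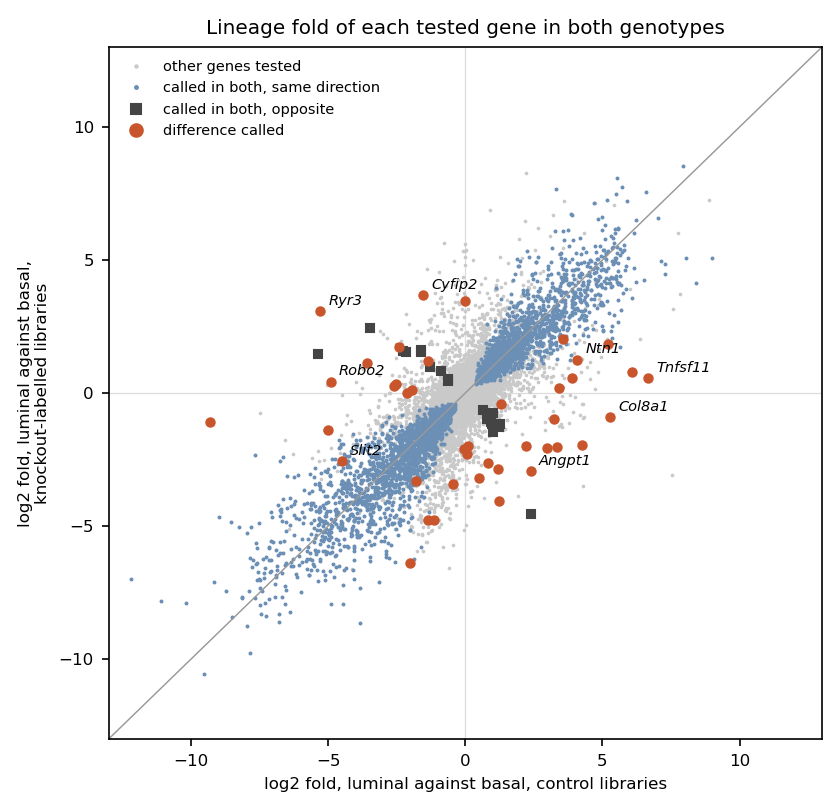
Log2 fold, luminal against basal, of each of 14903 tested genes in the control libraries (horizontal) and in the knockout-labelled libraries (vertical), with the line of equal folds. Of the genes called in both, 3851 had the same direction and 31 the opposite, and the 41 genes whose fold differed between genotypes are marked apart.

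For 31 genes the lineage difference was called in both genotypes in opposite directions. Of these 11 also passed the test of the difference itself. In all 41 genes, 0.275% of those tested, had a luminal-to-basal fold that differed between genotypes (the difference is knockout-labelled minus control, on the log2 scale), 14 of them more positive and 27 more negative in the knockout-labelled libraries, and 1467 genes had an unadjusted p under 0.05. Of the 41, 13 were called in the controls only, 8 in the knockout-labelled libraries only, 9 in both in the same direction and 11 in both in opposite directions. A replicate block within genotype gave 216 genes. Leaving out 1 library gave 14, 12 and 81 genes without basal control replicates 1, 2 and 3, and 19, 16 and 16 without basal knockout-labelled replicates 1, 2 and 3. It gave 26, 20 and 86 without luminal control replicates 1, 2 and 3, and 48, 10 and 15 without luminal knockout-labelled replicates 1, 2 and 3.

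Genes whose lineage bias was reversed were led by Col8a1, a short-chain collagen of vessels and basement membranes. Col8a1 was at 2.90, 2.68 and 2.31 CPM in basal and 143, 80.1 and 86.2 CPM in luminal controls, and at 4.66, 6.18 and 5.54 CPM in basal and 2.39, 3.67 and 2.67 CPM in luminal knockout-labelled libraries. The luminal controls stood apart from the other 9 libraries. The contrast gave a log2 fold of 5.29 (adjusted p = 1.62e-06, SE 0.29) in the controls and -0.91 (adjusted p = 0.0180, SE 0.27) in the knockout-labelled libraries, and the difference was -6.19 (adjusted p = 4.94e-05, SE 0.39). The knockout call of Col8a1 was lost without basal replicate 2 or luminal replicates 1 or 3 and with limma-voom (adjusted p up to 0.0767). Angpt1, a ligand of the Tek receptor, was at 2.39, 2.86 and 1.94 CPM in basal and 10.4, 18.7 and 8.55 CPM in luminal controls, and at 20.9, 33.6 and 29.7 CPM in basal and 4.79, 3.31 and 2.87 CPM in luminal knockout-labelled libraries. Its log2 difference was -5.33 (adjusted p = 0.00184, SE 0.50), with basal knockout-labelled libraries highest. Adcy5, an adenylyl cyclase, moved from a log2 fold of 2.21 (adjusted p = 5.47e-04, SE 0.35) in the controls to -1.99 (adjusted p = 0.00103, SE 0.35), a difference of -4.20 (adjusted p = 0.00522, SE 0.49). Tmtc1 moved from a log2 fold of 0.84 to -2.64, a difference of -3.48 (adjusted p = 0.00522, SE 0.41). Zfp979, a zinc finger gene, moved from a log2 fold of 4.27 to -1.97, a difference of -6.24 (adjusted p = 0.0108, SE 0.82) that was lost without luminal knockout-labelled replicate 2 (adjusted p = 0.0569). Its fold in the knockout-labelled libraries was lost without basal replicate 1 or luminal replicates 1, 2 or 3, with DESeq2, with limma-voom and with luminal replicate 3 thinned (adjusted p up to 0.137).

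In the other direction, Cyfip2, which links small GTPases to actin, was at 2.18, 1.88 and 2.40 CPM in basal and 0.936, 0.277 and 1.01 CPM in luminal controls, and at 2.74, 3.05 and 1.74 CPM in basal and 24.9, 45.4 and 27.2 CPM in luminal knockout-labelled libraries. The luminal knockout-labelled libraries were the highest of all, and the log2 difference was 5.22 (adjusted p = 0.00522, SE 0.58). Ryr3, a ryanodine receptor calcium channel, was at 19.1, 15.5 and 7.48 CPM in basal and 0.187, 0.647 and 0.201 CPM in luminal controls, and at 0.507, 2.87 and 1.09 CPM in basal and 7.88, 9.40 and 21.2 CPM in luminal knockout-labelled libraries. The lineages traded places between genotypes, with a log2 difference of 8.37 (adjusted p = 0.00522, SE 1.0). Apcdd1, a membrane inhibitor of Wnt signalling, lost its basal bias, from a log2 fold of -2.53 (adjusted p = 2.74e-05, SE 0.25) in the controls to 0.36 (adjusted p = 0.239, SE 0.23), a difference of 2.88 (adjusted p = 0.00522, SE 0.34). Pamr1 and Rbm24 gained basal bias. Pamr1 was at 74.9, 109 and 67.5 CPM in basal and 2.09, 3.31 and 3.80 CPM in luminal knockout-labelled libraries, against 16.5, 10.8 and 10.7 CPM in basal and 4.49, 8.32 and 4.52 CPM in luminal controls, a log2 difference of -3.63 (adjusted p = 0.00864, SE 0.46). Rbm24, an RNA-binding protein of muscle, had a log2 difference of -4.37 (adjusted p = 0.0128, SE 0.59), which was lost without luminal knockout-labelled replicates 2 or 3 and with limma-voom (adjusted p up to 0.0702).

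Of the 45 tested guidance genes, 5 were among the 41, where 0.275% of all genes tested were. The list was chosen with earlier results of these data known, so this count is not a test of the list. The differences of Slit2, Robo1 and Plxnd1 failed in 8, 8 and 9 of the 12 fits that left out 1 library. Robo2, a receptor for Slit ligands, was at 43.0, 43.0 and 15.3 CPM in basal and 1.5, 0.740 and 1.11 CPM in luminal controls, and at 17.5, 20.8 and 14.1 CPM in basal and 19.4, 28.5 and 22.4 CPM in luminal knockout-labelled libraries. The luminal controls were the lowest of the 12 libraries. The contrast gave a log2 fold of -4.91 (adjusted p = 1.59e-05, SE 0.45) in the controls and 0.42 (adjusted p = 0.372, SE 0.36) in the knockout-labelled libraries, a difference of 5.33 (adjusted p = 0.00484, SE 0.57). Its relative Robo1 was at 99.9, 89.4 and 62.9 CPM in basal and 28.3, 21.4 and 16.8 CPM in luminal controls, and at 34.6, 42.6 and 42.6 CPM in basal and 39.8, 49.3 and 39.0 CPM in luminal knockout-labelled libraries. The lineages were separated in the controls and overlapped in the knockout-labelled libraries, with a log2 difference of 2.02 (adjusted p = 0.0322, SE 0.32). The ligand Slit2 was at 41.2, 43.1 and 51.3 CPM in basal and 2.06, 1.85 and 2.01 CPM in luminal controls, and at 9.32, 12.5 and 12.2 CPM in basal and 2.19, 1.97 and 1.60 CPM in luminal knockout-labelled libraries, a log2 difference of 1.95 (adjusted p = 0.0260, SE 0.29). Slit2 was called lower in luminal cells in both genotypes. Ntn1 was at 8.40, 11.5 and 11.6 CPM in basal and 176, 217 and 137 CPM in luminal controls, and at 38.1, 37.7 and 28.4 CPM in basal and 96.5, 89.9 and 62.7 CPM in luminal knockout-labelled libraries. Its luminal bias was smaller in the latter, with a log2 difference of -2.81 (adjusted p = 0.00522, SE 0.33). Plxnd1, a plexin that binds semaphorins, had a larger basal bias in the knockout-labelled libraries, -3.32 (adjusted p = 1.19e-06, SE 0.19) against a log2 fold of -1.80 (adjusted p = 2.55e-05, SE 0.18), a difference of -1.52 (adjusted p = 0.0371, SE 0.25).

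Other list members among the 41 were Tnfsf11, Igf2 and Cdh2. Tnfsf11 was at 0.311, 0.447 and 0 CPM in basal and 29.3, 36.9 and 13.6 CPM in luminal controls, and the luminal bias of a log2 fold of 6.65 (adjusted p = 3.71e-05, SE 0.70) there was not seen in the knockout-labelled libraries, a difference of -6.08 (adjusted p = 0.0392, SE 1.01). Igf2, the growth factor, was at 4.77, 6.79 and 6.93 CPM in basal and 108, 59.8 and 17.5 CPM in luminal controls and at 5.77, 6.18 and 7.06 CPM in basal and 0.598, 1.70 and 2.27 CPM in luminal knockout-labelled libraries, a log2 difference of -5.34 (adjusted p = 0.0288, SE 0.82). The knockout log2 fold of Igf2, -2.01 (adjusted p = 0.0192, SE 0.60), was lost without basal replicate 3 or luminal replicates 1 or 2 and with limma-voom (adjusted p up to 0.113). Cdh2, N-cadherin, had a smaller basal bias in the knockout-labelled libraries, -1.39 (adjusted p = 0.0193, SE 0.41) against a log2 fold of -5.0 (adjusted p = 2.74e-05, SE 0.50), a difference of 3.61 (adjusted p = 0.0474, SE 0.64), and its knockout call was lost without basal replicates 2 or 3 or luminal replicates 1 or 3 (adjusted p up to 0.0730). The differences of Slit2, Robo1, Plxnd1, Tnfsf11, Igf2 and Cdh2 each failed to pass without basal control replicate 1 or 2, any of the 3 basal knockout-labelled libraries, luminal control replicate 2 or luminal knockout-labelled replicate 2. All but that of Slit2 also failed without luminal knockout-labelled replicate 3, and those of Slit2, Tnfsf11 and Cdh2 without luminal control replicate 1. The difference of Plxnd1 failed without luminal knockout-labelled replicate 1, and that of Cdh2 without luminal control replicate 3. Over these fits the adjusted p reached 0.147. With limma-voom 5 of the 6 failed, all but Robo1 (adjusted p up to 0.143), and with library size alone those of Plxnd1 and Cdh2 failed (adjusted p up to 0.0582). The differences of Col8a1, Angpt1, Robo2, Cyfip2, Adcy5, Ntn1, Apcdd1, Tmtc1, Ryr3 and Pamr1 passed in all 12 fits that left out 1 library and in the 10 other settings tried.

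**Figure D5:**
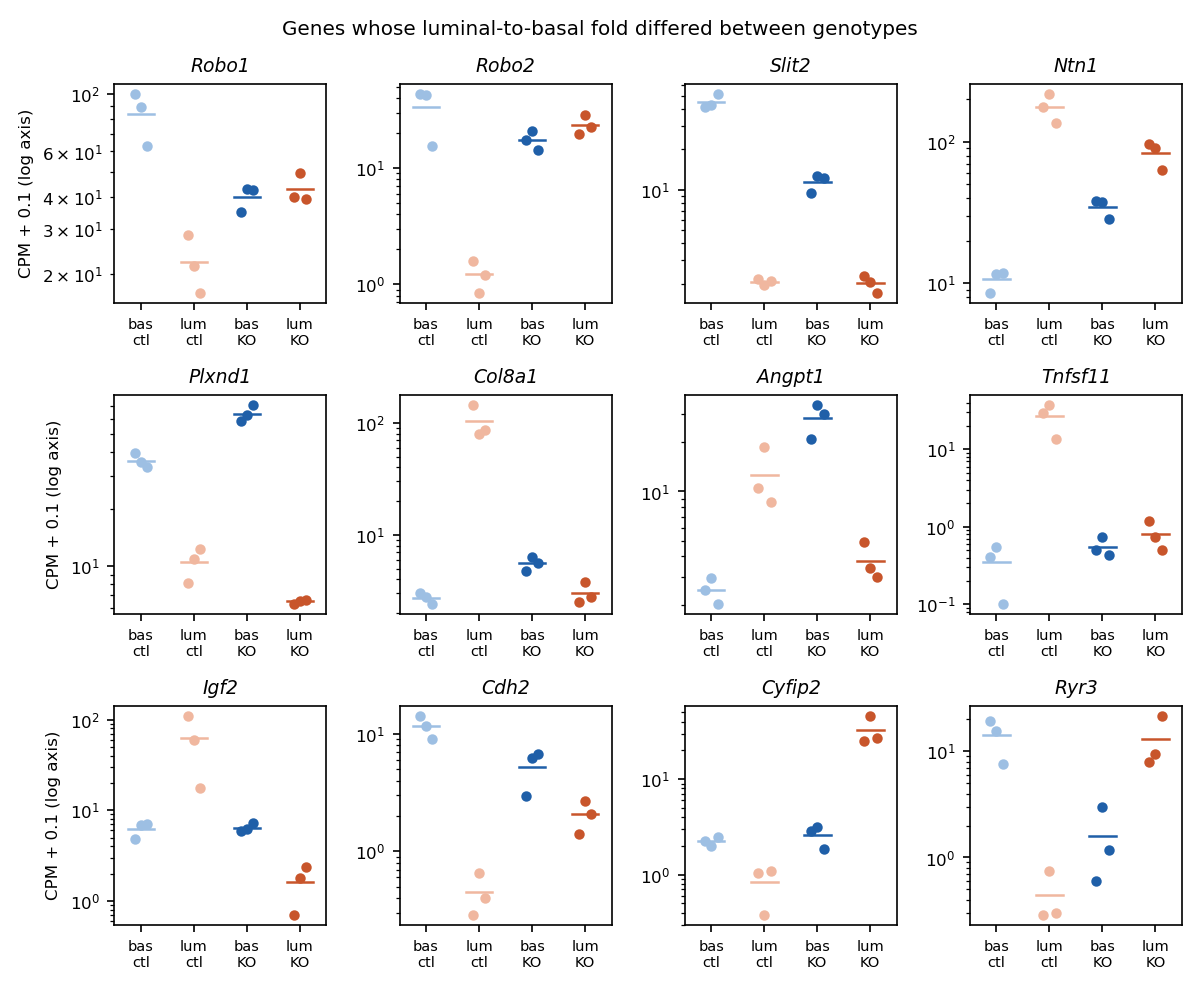
Level, as CPM + 0.1 on a log axis, of 12 genes whose luminal-to-basal fold differed between genotypes, with bas for basal, lum for luminal, ctl for control and KO for knockout-labelled libraries. Points are libraries and lines are means of 3. For Robo2 and Cyfip2 the luminal libraries of the 2 genotypes lie far apart, and for Col8a1 and Tnfsf11 the luminal controls stand above the rest.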

How the data were processed

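RNA of mouse mammary basal and luminal epithelial cells was sequenced from RNeasy total RNA with TruSeq RNA v2 libraries on an Illumina HiSeq 2000, per the labels' protocols. The authors deposited whole-number counts of reads per Entrez gene without normalization. The submitters' processing notes name CASAVA 1.8.2, featureCounts and mm10, with aligner, annotation and strand setting not given in the sources used here. Without a known strand setting, reads of overlapping or antisense genes cannot be told apart. The table holds 27179 genes, 859 of them without a symbol, and 0 of its values differed from the 12 per-library tables.

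Counts were fitted with edgeR 4.0.16 (R 4.3.3), using TMM factors, its default filter, robust quasi-likelihood F tests and 4 group means over all 12 libraries, which left 8 residual degrees of freedom. The 14903 genes kept held at least 99.8% of each library's counts. A gene was called at a Benjamini-Hochberg adjusted p under 0.05 over all genes tested, and every adjusted p of a gene is from this fit unless another is named. SE is the absolute log2 fold divided by the square root of F. CPM of single genes use TMM-scaled library sizes, while the summed CPM of lists use total counts without TMM factors. Ratios replace fitted folds where a group had 3 or fewer counts in all, and their intervals cover counting error only. The biological coefficient of variation was 32.6%. Within groups it was 37.5% in basal controls, 35.6% in luminal controls, and 29.9% in basal and 26.6% in luminal knockout-labelled libraries. Within-group chi-square values of 12.2 to 142 per degree of freedom showed no library deposited in duplicate. Simulated counts with known folds were used to check the fit.

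The members and the 40 gene lists, with 889 distinct genes of which 806 were tested, were chosen with earlier results of these data known. Genes named were Foxp1, up to 12 per direction with the largest folds (average log2 CPM at least 4, groups not overlapping, no predicted genes), up to 5 called members per list with up to 3 against its majority, the 12 with the lowest p for the difference between genotypes, every list member called for it, and a set of lineage genes. Exceptions are marked in the text. Some genes that this rule names are not reported here. Lists are described by counts and medians only.

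Replicate numbers are shared by the groups. Deviations of same-numbered basal and luminal libraries from their group means correlated at 0.106, 0.525 and 0.493 in the knockout-labelled and at 0.327, 0.468 and 0.495 in the control groups, all above 0.1, so numbers were taken to pair basal and luminal libraries within a genotype. Between genotypes, same-numbered libraries correlated at 0.402, 0.414 and 0.650 in luminal and at -0.0401, 0.427 and 0.210 in basal cells. What a shared number stands for is not in the labels and was not tested. The main fit and its adjusted p hold no block. The blocked value is given where it moved a count by over 1.5 times. Alternatives were DESeq2 1.42.0, limma-voom (limma 3.58.1), other scalings and filters, a 2-fold threshold, the replicate block, the 6 libraries alone and each library left out. Gene positions and promoters are from RefSeq, GRCm38.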

Additional observations from a re-analysis of the deposited data

Results flagged for a closer look

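For 18 named genes the luminal-to-basal log2 fold differed between knockout-labelled and control libraries by the edgeR test of the difference itself, with an adjusted p under 0.05. Groups held 3 libraries, too few for a test of single outlying libraries. The difference, knockout-labelled minus control, was negative for Col8a1 (-6.19), Angpt1 (-5.33), Adcy5 (-4.20), Ntn1 (-2.81), Tmtc1 (-3.48), Pamr1 (-3.63), Zfp979 (-6.24), Rbm24 (-4.37), Igf2 (-5.34), Plxnd1 (-1.52) and Tnfsf11 (-6.08). It was positive for Robo2 (5.33), Cyfip2 (5.22), Apcdd1 (2.88), Ryr3 (8.37), Slit2 (1.95), Robo1 (2.02) and Cdh2 (3.61). Fibroblast markers were higher in the basal knockout-labelled libraries than in the basal controls, with sums of 4116, 5787 and 3527 CPM against 1338, 1192 and 1498 CPM, and their part in these differences was not tested.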

How the results depend on the processing

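The number of genes that differed between luminal and basal knockout-labelled libraries was 6044, and ranged from 5790 to 7634 over the other scalings, filters, tools and blocks. Against a 2-fold threshold it was 2506, of which 996 were higher and 1510 lower, because that test asks for more than a nonzero fold. Without 1 library it was 4765 to 5899, with 2089 to 2768 higher and 2545 to 3131 lower. Scaling by library size alone moved the median log2 fold of all genes from 0.03 to 0.15. The calls shared with the controls numbered 3543 to 5125 over the settings, 3249 to 3786 without 1 knockout-labelled library, and 2896 to 4136 without 1 control library, fits added after seeing the data. The 41 genes whose fold differed between genotypes became 358 with DESeq2, 22 with limma-voom, 216 with the replicate block within genotype and 106 with a block by replicate number alone, an alternative chosen after seeing the data, as was thinning luminal replicate 3. They were 10 to 86 without 1 library, and the cause was not tested. Of 225 named genes called, 190 stayed called under every alternative apart from the 2-fold threshold. No result changed sign while called. Apart from the counts given with the lists, the block changed no call of a named gene. Depth limits Csn2, Csn1s2a and Tnfsf11, which had few counts in the knockout-labelled libraries.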
